A study of Homo sapiens with 16 samples.

Results

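In all, 10 genes of the circadian clock were followed in 2 human multiple myeloma cell lines: PER1, PER2, PER3, CRY1, CRY2, ARNTL, CLOCK, NR1D1, NR1D2 and DBP. They were taken from the read-count table by gene symbol, 10 of 23354 genes, and not by a cutoff on their values. The choice was made with earlier results of these data known. All 10 passed the filter on low counts and were among the 14215 genes tested.

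In most human cells the clock runs as a loop of transcription. The proteins CLOCK and ARNTL (also called BMAL1) pair and activate genes through E-boxes, among them the period genes (PER1, PER2, PER3) and cryptochrome genes (CRY1, CRY2), whose proteins come back to the nucleus and repress that pair. In a connected loop, NR1D1 and NR1D2, the nuclear receptors REV-ERBα and REV-ERBβ, repress ARNTL through ROR elements, and DBP carries the rhythm to other genes through D-boxes. Glucocorticoids are known to set clocks of many tissues, and PER1 is a textbook target of the glucocorticoid receptor.

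MM1S is a myeloma line that is sensitive to glucocorticoids and MM1R is its resistant counterpart, so that each state was represented by 1 line. Cells of each line received vehicle (Veh), 0.1 μM TAK-981, an inhibitor of the SUMO-activating E1 enzyme, 1 μM dexamethasone (Dex), a synthetic glucocorticoid, or both agents together (combo). Each group held 2 RNA-seq libraries, 16 in all, and the treated cells were collected after 48 h, while the labels give no time for vehicle. The labels name no genetic change in any group. The labels do not say whether the 2 libraries of a group came from separate cultures, so p-values measure the spread between these libraries. The clock time of harvest was not given in the sources used here, and at a single time point a shift of the rhythm and a change of level cannot be told apart. In bulk RNA, fewer cells that express a gene and less RNA per cell cannot be told apart either.

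Libraries held 15707587 to 20644510 counts in MM1S and 18987739 to 24796539 in MM1R, of which the 10 clock genes together took 6117 to 8591. The plasma cell identity of the lines was checked on 9 markers, and all 9 were detected in both lines. The summed level of these markers was 3669 to 5306 CPM (counts for each 1000000 counts of a library, after scaling) in MM1S and 6056 to 6685 CPM in MM1R. Markers of B, T, myeloid and stromal cells summed to at most 5.46 CPM per list and library. Most of that largest sum was CD3E of T cells, detected in every library at 0.372 to 5.33 CPM, while CD3D of T cells was at 0 throughout. Dex raised FKBP5, a glucocorticoid receptor target, from 68.6 and 69.0 CPM to 1725 and 1602 CPM in MM1S. In MM1R it stood at 93.0 and 96.4 CPM with vehicle and at 92.5 and 99.0 CPM with Dex. NR3C1, the gene of the glucocorticoid receptor itself, was at 6.77% of its MM1S level in vehicle-treated MM1R cells. The share of counts taken by the nuclear RNA MALAT1 was 2.85% to 3.47% without TAK-981 and 5.22% to 6.17% with it. That share moved with TAK-981 in both lines, and its part in the results for TAK-981 was not tested.

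Stretches of 3 promoters are shown since they hold letter matches to the E-box, the D-box or the ROR element, the motifs named above. They come from RefSeq on build GRCh38.p14, in which all 10 members were matched (ARNTL under the symbol BMAL1) with 15 start windows of 300 bases. They run 5′ to 3′ along the gene's strand and stop at the RefSeq start or at the first exon in the GENCODE annotation, apart from 4 bases of PER2. Capitals mark matches to any motif searched, which in these stretches were the E-box CACGTG, the D-box TTANGTAA and the ROR element core AGGTCA, each on both strands. The PER1 stretch (chr17:8152436-8152654, minus strand) has an E-box that starts 173 bases before the RefSeq start and, on the other strand, a ROR core at 144 bases. The PER2 stretch (chr2:238288606-238288860, minus strand) ends with a D-box that begins 3 bases before the start and matches on both strands. The NR1D2 stretch (chr3:23945871-23946120, plus strand) lies before the second of 2 RefSeq starts, inside the gene and outside its annotated exons, and holds 2 E-boxes, at 155 and 105 bases, and a D-box at 194 bases.
PER1: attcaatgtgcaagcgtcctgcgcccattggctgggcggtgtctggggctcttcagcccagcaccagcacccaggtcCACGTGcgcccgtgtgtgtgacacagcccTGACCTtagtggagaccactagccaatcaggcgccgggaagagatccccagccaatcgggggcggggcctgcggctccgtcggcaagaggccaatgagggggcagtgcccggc
PER2: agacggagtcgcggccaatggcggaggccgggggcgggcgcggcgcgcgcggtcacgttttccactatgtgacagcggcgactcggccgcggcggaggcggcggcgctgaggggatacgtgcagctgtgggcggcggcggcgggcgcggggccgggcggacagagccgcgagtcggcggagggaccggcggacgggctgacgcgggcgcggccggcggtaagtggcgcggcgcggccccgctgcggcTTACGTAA
NR1D2: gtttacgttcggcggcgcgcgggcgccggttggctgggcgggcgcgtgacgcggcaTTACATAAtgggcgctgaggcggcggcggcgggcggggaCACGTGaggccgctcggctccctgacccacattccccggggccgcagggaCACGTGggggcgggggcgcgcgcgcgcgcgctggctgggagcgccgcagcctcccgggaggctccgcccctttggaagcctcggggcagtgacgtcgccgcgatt

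The E-box was found in 2 of the 15 windows, 1 each of PER1 and NR1D2, while 7.26% of all 35116 RefSeq windows hold it. A D-box stood in 3 of the 15 windows (PER2, PER3 and NR1D2), against 2.18% of all windows. A ROR core stood in 4 of the 15, in PER1, ARNTL and both windows of CRY2, against 13.8%. The glucocorticoid receptor core site AGAACA, present in 14.8% of all windows, was in none of the 15. The same held for the palindrome of that core site with a gap of 3 bases (0.00285% of all windows) and for the cAMP response element TGACGTCA (1.85%). These matches describe letters in short windows and are not evidence of binding.

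On the scale of level per length (RPKM, CPM divided by the gene length in kilobases that the table gives), NR1D2 and CRY2 took the top places with vehicle in both lines. NR1D2 was highest in MM1S at 12.5 ± 0.351 RPKM (SD, n = 2), followed by CRY2 at 8.99 ± 0.288 RPKM. In MM1R, CRY2 led at 8.60 ± 0.258 RPKM, and NR1D2, CLOCK and NR1D1 followed at 7.61, 7.36 and 7.24 RPKM, with library values that overlapped from one to the next. In MM1S with vehicle, the neighbours CLOCK (7.16 RPKM) and NR1D1 (6.77 RPKM) were the only ones that overlapped. ARNTL stood at 6.28 RPKM in MM1S and 5.48 RPKM in MM1R. PER2 and DBP took the eighth and ninth places in every group, in that order with vehicle or Dex, and they overlapped in both TAK-981 groups and in the MM1R combo group. PER3 came last throughout, at 0.0451 to 0.102 RPKM on average, which rested on only 5 to 15 counts per library.

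**Figure D1:**
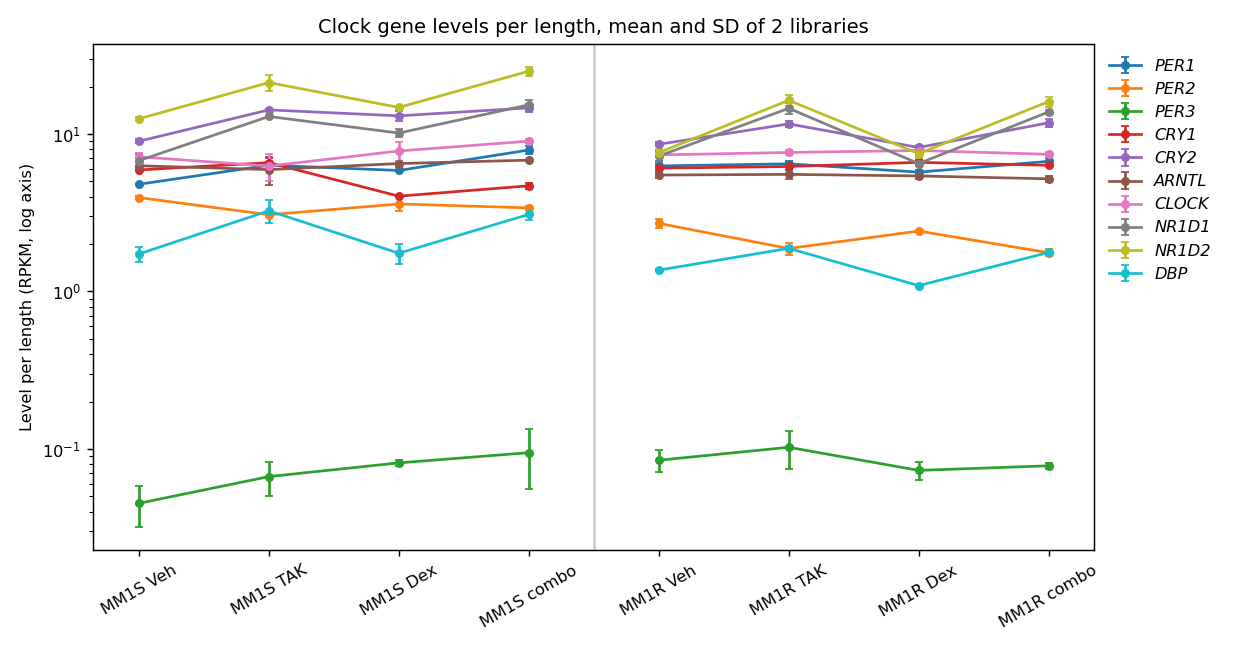
Level per length of each clock gene (RPKM, log axis) in the 8 groups, as the mean and SD of 2 libraries. NR1D2 is the top gene in all 4 MM1S groups, and PER3 lies far below the other genes everywhere.

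The gene models span these intervals in the table, which is on build hg19: PER1 chr17:8043788-8059678, PER2 chr2:239152679-239198743, PER3 chr1:7844380-7905237, CRY1 chr12:107385143-107487635 and CRY2 chr11:45868669-45904799. ARNTL lies at chr11:13299325-13408812, CLOCK at chr4:56294068-56413076, NR1D1 at chr17:38249037-38256978, NR1D2 at chr3:23986751-24022109 and DBP at chr19:49133817-49140639. Of these, 4 overlap a gene on the opposite strand at one end. The overlap is 1084 bases of NR1D1 with THRA, 1303 bases of NR1D2 with NKIRAS1, 158 bases of DBP with SPHK2 and 2095 bases of PER3 with UTS2. The strand setting of the counting was not given, so reads in these stretches cannot be told apart.

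TAK-981 raised both REV-ERB genes, CRY2 and DBP and lowered PER2, in both lines. Of the 10 genes, 6 passed the test in MM1S (5 higher, 1 lower), beside 49.0% of all genes tested. The MM1R count was 5 of the 10 (4 higher, 1 lower), beside 53.4% of all genes. All adjusted p-values here and below are from the quasi-likelihood F test of edgeR, adjusted by Benjamini-Hochberg over all genes tested and called under 0.05, and all differences are log2 differences of normalised counts. The median difference over the 10 genes was 0.48 for MM1S and 0.16 for MM1R, and over all genes tested it was 0.04 for MM1S and 0.00 for MM1R.

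NR1D1, which encodes REV-ERBα, measured 17.4 and 20.0 CPM in the vehicle libraries of MM1S and 35.7 CPM in both TAK-981 libraries. In MM1R it went from 21.2 and 18.8 CPM to 42.4 and 38.1 CPM. Treated and vehicle libraries did not overlap in either line. The MM1S difference was 0.93 (SE 0.0946, adjusted p = 1.8e-07), and that in MM1R was 1.01 (SE 0.0917, adjusted p = 5.2e-08). Its antisense neighbour THRA, at 8.22 to 22.6 CPM, also rose (0.81 in MM1S, 0.59 in MM1R). What reads of THRA add to the count of NR1D1 was not tested.

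NR1D2, which encodes REV-ERBβ and whose promoter stretch is printed above, measured 67.1 and 69.9 CPM with vehicle and 126 and 107 CPM with TAK-981 in MM1S. In MM1R the vehicle libraries held 43.5 and 40.0 CPM and the treated libraries 95.02 and 84.6 CPM. All 4 treated libraries lay above all vehicle libraries of both lines. NR1D2 rose by 0.76 in MM1S (SE 0.0838, adjusted p = 4.9e-07), and its MM1R rise was 1.10 (SE 0.0864, adjusted p = 7.0e-09). Its antisense neighbour NKIRAS1 did not pass the test in either line, at -0.27 (adjusted p = 0.27) in MM1S and -0.24 (adjusted p = 0.26) in MM1R.

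DBP, the output factor that binds D-boxes, rose in MM1S from 9.54 and 11.1 CPM to 17.1 and 21.6 CPM. In MM1R its 2 vehicle libraries were close, at 8.06 and 8.20 CPM, and the treated libraries reached 11.0 and 11.4 CPM. The groups did not overlap in either line. For MM1S the difference was 0.91 (SE 0.123, adjusted p = 6.3e-06), and for MM1R it was 0.46 (SE 0.132, adjusted p = 0.0069). In MM1R the call was lost without the second TAK-981 library (0.43, adjusted p = 0.052). Its antisense neighbour SPHK2, at 27.6 to 42.5 CPM above DBP itself, rose by 0.35 in MM1S (adjusted p = 0.0030) and did not pass in MM1R (0.05, adjusted p = 0.67). What reads of SPHK2 add to the count of DBP was not tested.

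CRY2, a repressor of the CLOCK and ARNTL pair, went from 41.3 and 39.5 CPM to 63.1 and 64.6 CPM in MM1S. In MM1R it went from 39.4 and 37.8 CPM to 50.5 and 53.6 CPM. The rise was 0.66 (SE 0.0742, adjusted p = 6.7e-07) for MM1S and 0.43 (SE 0.0743, adjusted p = 9.2e-05) for MM1R. Its paralog CRY1 did not pass the test, at 0.15 (95% interval -0.03 to 0.34) in MM1S and 0.04 (-0.14 to 0.22) in MM1R.

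Among the period genes, PER2 fell in both lines and PER1 rose in MM1S. PER2 fell in MM1S from 28.4 and 27.6 CPM to 22.0 and 21.5 CPM, and its MM1R libraries fell from 18.4 and 20.0 CPM to 12.5 and 14.1 CPM. Its difference was -0.36 (SE 0.0897, adjusted p = 0.0026) in MM1S and -0.53 (SE 0.0966, adjusted p = 0.00016) in MM1R. PER1 measured 27.8 and 28.0 CPM with vehicle and 35.6 and 38.1 CPM with TAK-981 in MM1S, a rise of 0.40 (SE 0.0802, adjusted p = 0.00041). In MM1R the PER1 libraries overlapped, at 34.5 and 38.5 CPM with vehicle and 36.4 and 38.9 CPM with TAK-981, and the difference was 0.04 (95% interval -0.12 to 0.21). PER3 did not pass the test, and at these counts its interval was -0.45 to 1.59 for MM1S and -0.52 to 1.04 for MM1R.

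The activators did not pass the test with TAK-981 in either line. CLOCK, a histone acetyltransferase and the partner of ARNTL, measured 82.2 and 76.6 CPM with vehicle and 78.7 and 59.9 CPM with TAK-981 in MM1S, where the second treated library was the lowest of all 16. ARNTL measured 21.1 and 21.2 CPM with vehicle and 22.9 and 17.1 CPM with TAK-981 in the same line, so that treated libraries lay on both sides of the vehicle libraries. The intervals of the difference in MM1S were -0.42 to 0.03 for CLOCK and -0.31 to 0.15 for ARNTL. In MM1R they were -0.17 to 0.27 for CLOCK and -0.21 to 0.24 for ARNTL. In MM1S, CLOCK passed in the fit with the replicate number as a block (-0.20, adjusted p = 0.0099). Without the first TAK-981 library of MM1S, both CLOCK (-0.41, adjusted p = 0.0014) and ARNTL (-0.31, adjusted p = 0.021) passed.

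**Figure D2:**
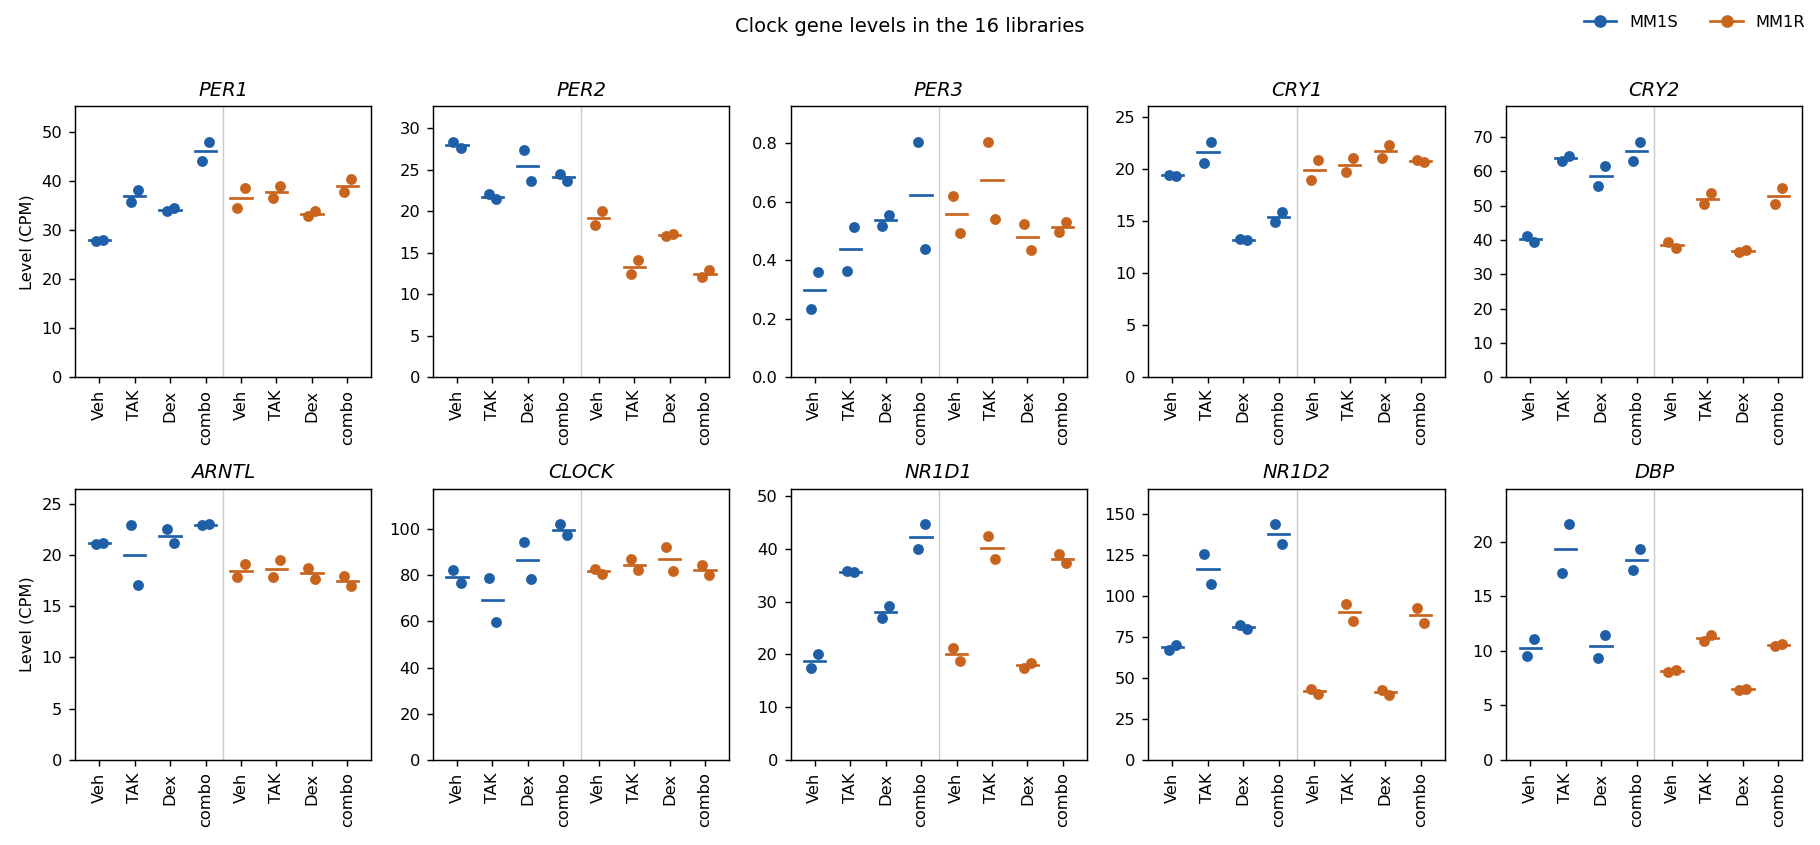
Level of each clock gene in CPM, with 1 panel per gene, an axis from 0, a point per library and a line at the group mean. NR1D1, NR1D2, CRY2 and DBP sit higher with TAK-981 and combo than with vehicle in both lines, while CRY1 sits lower with Dex and combo in MM1S.

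Whether the response to TAK-981 differed between the lines was tested as the change in MM1R minus the change in MM1S. None of the 10 genes passed that test in edgeR, beside 4.16% of all genes, and DESeq2 called 0. At an unadjusted p under 0.05 there were 4 of the 10, beside 3021 of all 14215 genes. The largest of these differences were -0.45 for DBP (adjusted p = 0.16), -0.36 for PER1 (adjusted p = 0.077) and 0.34 for NR1D2 (adjusted p = 0.11). In the fit with the replicate number as a block, DBP (-0.45, adjusted p = 0.034), PER1 (-0.36, adjusted p = 0.014) and NR1D2 (0.34, adjusted p = 0.0082) passed. Libraries of the same replicate number varied alike in MM1S, while in MM1R their correlations were weaker and pairing was left undecided. Without the first TAK-981 library of MM1S, these 3 genes passed too, and so did CLOCK (0.46, adjusted p = 0.017).

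Dex changed clock genes in MM1S. There, 5 of the 10 genes passed the test (4 higher, 1 lower), beside 42.3% of all genes, with a median difference of 0.18 over the 10 genes and 0.01 over all genes. PER1, the period gene known as a target of the glucocorticoid receptor, rose from 27.8 and 28.0 CPM to 33.8 and 34.4 CPM, with no overlap. Its difference was 0.29 (SE 0.0806, adjusted p = 0.0070), a smaller change than those of FKBP5 (4.60) and TSC22D3 (3.71), both glucocorticoid receptor targets outside the clock.

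The cryptochromes moved in opposite directions with Dex in MM1S. CRY1 fell from 19.5 and 19.3 CPM to 13.3 and 13.2 CPM, a difference of -0.55 (SE 0.0917, adjusted p = 8.4e-05). CRY2 rose from 41.3 and 39.5 CPM to 55.6 and 61.5 CPM, a difference of 0.54 (SE 0.0745, adjusted p = 1.2e-05). For both genes the treated and vehicle libraries did not overlap.

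NR1D1 rose from 17.4 and 20.0 CPM to 27.0 and 29.1 CPM with Dex in MM1S (0.58, SE 0.0963, adjusted p = 8.0e-05), and its neighbour THRA rose by 0.66. NR1D2 rose from 67.1 and 69.9 CPM to 82.3 and 79.5 CPM (0.24, SE 0.0848, adjusted p = 0.029), while its neighbour NKIRAS1 fell by 0.80 (adjusted p = 0.0048). The call on NR1D2 was lost without any 1 of the 4 libraries compared, where the difference was 0.21 to 0.27 and the adjusted p 0.060 to 0.16. It was also lost with library sizes alone as the scale (0.21, adjusted p = 0.067). DBP did not pass, with 9.33 and 11.5 CPM against 9.54 and 11.1 CPM with vehicle and an interval from -0.26 to 0.30. PER2 (-0.14), ARNTL (0.05), CLOCK (0.12) and PER3 (0.85) did not pass either, and the interval of PER3 ran from -0.12 to 1.83.

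In MM1R, 0 of the 10 genes passed with Dex, beside 0% of all genes (0 of 14215 in edgeR), and DESeq2 called none of the 10 either. At an unadjusted p under 0.05 there was 1 clock gene, DBP, beside 395 of all 14215 genes. DBP measured 8.06 and 8.20 CPM with vehicle and 6.42 and 6.55 CPM with Dex. Its difference was -0.33 (95% interval -0.62 to -0.03), with an adjusted p of 1. PER1 stood at 32.7 and 33.9 CPM with Dex, below its vehicle libraries at 34.5 and 38.5 CPM, with a difference of -0.13 (95% interval -0.29 to 0.03). CRY1 had 18.9 and 20.9 CPM with vehicle and 21.0 and 22.3 CPM with Dex, and CRY2 39.4 and 37.8 CPM against 36.5 and 37.2 CPM.

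**Figure D3:**
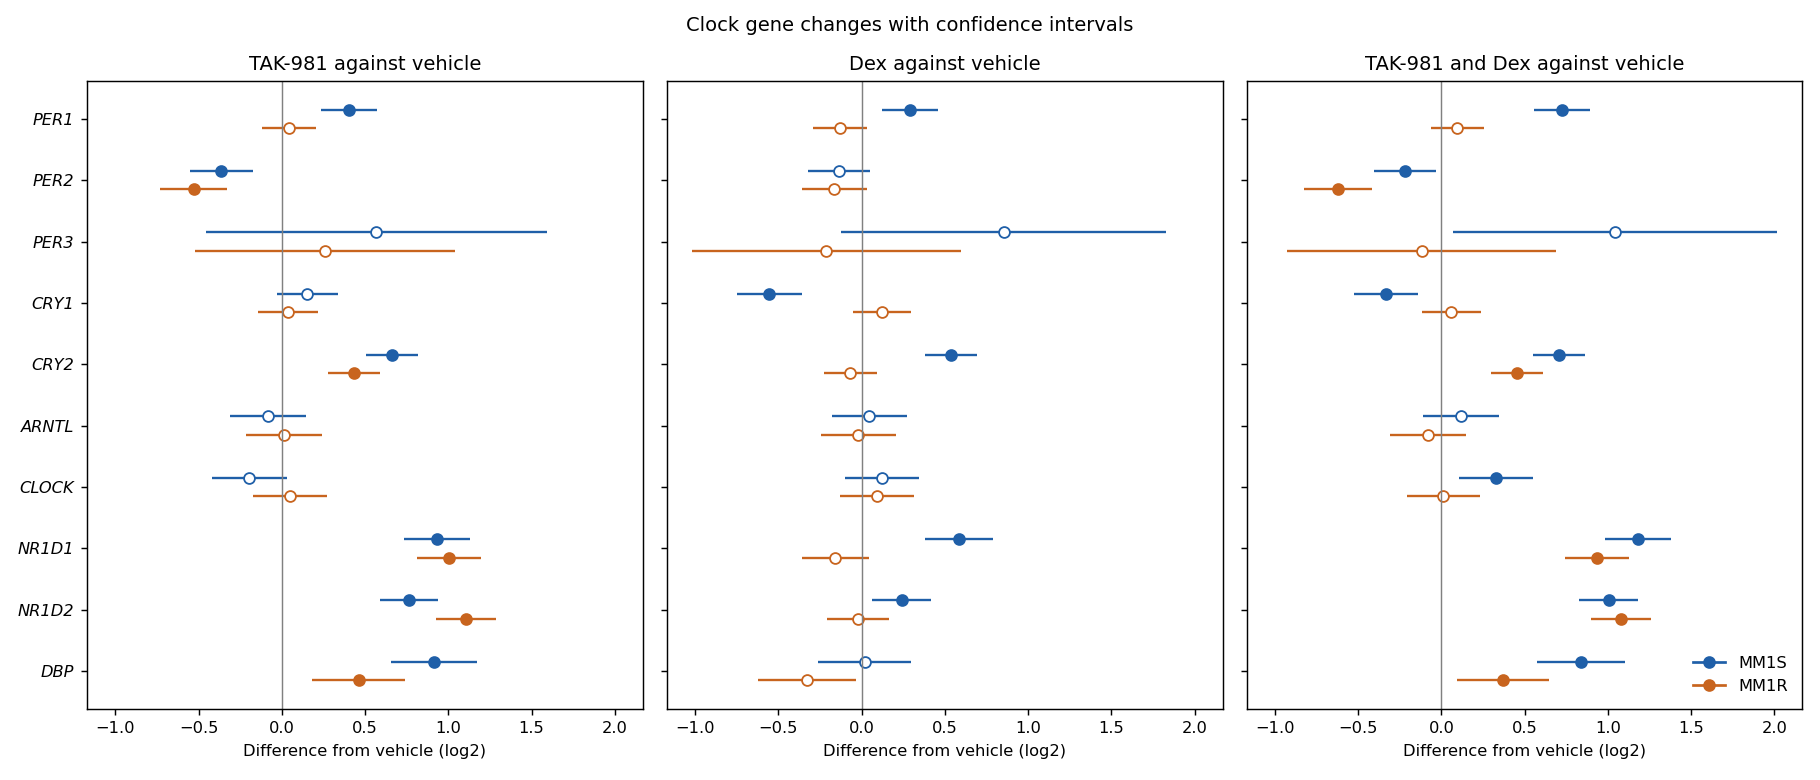
Log2 difference from vehicle for each clock gene with TAK-981, Dex and both, in MM1S and MM1R. Bars are 95% intervals and filled points passed at an adjusted p under 0.05, as 5 genes did with Dex in MM1S and 0 in MM1R.

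Tested directly, the response to Dex differed between the lines for 4 of the 10 genes (1 higher, 3 lower in MM1R minus MM1S), beside 28.1% of all genes. The difference in response was 0.68 for CRY1 (SE 0.124, adjusted p = 0.00045) and -0.60 for CRY2 (SE 0.106, adjusted p = 0.00029). For NR1D1 it was -0.74 (SE 0.136, adjusted p = 0.00045), and for PER1 -0.42 (SE 0.112, adjusted p = 0.0083). Each of the 4 had moved with Dex in MM1S, and the call on PER1 was lost without the second vehicle library of MM1R (-0.34, adjusted p = 0.062). NR1D2, the fifth gene that moved in MM1S, did not pass here (-0.26, adjusted p = 0.13) but did under the replicate block (-0.26, adjusted p = 0.022).

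With both agents in MM1S, 8 of the 10 genes differed from vehicle (6 higher, 2 lower), beside 60.3% of all genes. NR1D1 reached 40.0 and 44.7 CPM (1.18, SE 0.0944, adjusted p = 3.5e-09) and NR1D2 144 and 131 CPM (1.00, SE 0.0839, adjusted p = 6.5e-09), in each case the 2 highest libraries of the 8 in this line. PER1 reached 44.1 and 47.9 CPM, the highest of all 16 libraries (0.72, SE 0.0797, adjusted p = 2.9e-07). CRY2 stood at 63.0 and 68.6 CPM (0.70, adjusted p = 1.7e-07) and DBP at 17.4 and 19.4 CPM (0.84, adjusted p = 1.3e-05).

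CRY1 stayed below vehicle with both agents in MM1S, at 14.9 and 15.9 CPM (-0.33, adjusted p = 0.0042). CLOCK rose to 102 and 97.5 CPM (0.33, adjusted p = 0.013), a call that was lost without the second vehicle library (0.28, adjusted p = 0.097) or without the first combo library (0.29, adjusted p = 0.078). PER2 stood at 24.5 and 23.6 CPM and fell by 0.22 (adjusted p = 0.043). That call was lost in DESeq2 (-0.24, adjusted p = 0.088), without the filter on low counts and without any 1 of the 4 libraries compared. ARNTL (22.9 and 23.0 CPM) and PER3 did not pass, with intervals of -0.11 to 0.35 and 0.07 to 2.02. Without the second combo library PER3 passed (1.43, adjusted p = 0.028), on its few counts.

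Against TAK-981 alone, adding Dex in MM1S moved 5 of the 10 genes (4 higher, 1 lower), beside 35.1% of all genes. CLOCK was higher by 0.53 (adjusted p = 0.00097), and by 0.34 (adjusted p = 0.0089) without the second TAK-981 library, its lowest. CRY1 was lower, at -0.49 (adjusted p = 0.00037), and PER1 was higher, at 0.32 (adjusted p = 0.0035). PER1 lost its call without the second combo library (0.26, adjusted p = 0.053). The small rises of NR1D1 (0.25, adjusted p = 0.039) and NR1D2 (0.24, adjusted p = 0.029) were lost when only the 2 groups were fitted (adjusted p = 0.11 and 0.078). NR1D2 also lost its call without the second TAK-981 library (0.13) or the first combo library (0.17). The call on NR1D1 was lost too in DESeq2 (0.25, adjusted p = 0.069) and without the second combo library (0.17). The same held for NR1D1 without either TAK-981 library of MM1S or either combo library of MM1R (0.25 in each case). ARNTL, at 0.20 (adjusted p = 0.17), passed without the first TAK-981 library (0.43, adjusted p = 0.0033).

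Against Dex alone, adding TAK-981 in MM1S raised 4 of the 10 genes and lowered none, beside 47.6% of all genes. These were DBP (0.82, adjusted p = 3.2e-05), NR1D2 (0.76, adjusted p = 5.5e-07), NR1D1 (0.60, adjusted p = 3.1e-05) and PER1 (0.43, adjusted p = 0.00020). CRY2, which each agent alone had raised, did not pass here (0.17, adjusted p = 0.064). CRY1 did not pass either, at 0.22 (adjusted p = 0.067), nor did CLOCK, at 0.21 (adjusted p = 0.12). Under the replicate block CRY2 (0.17, adjusted p = 0.028) and CLOCK (0.21, adjusted p = 0.0058) passed. Without the first Dex library the value of CLOCK was 0.35 (adjusted p = 0.020), and without the second that of CRY2 was 0.24 (adjusted p = 0.037).

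Whether the combo change in MM1S differed from the sum of the 2 single-agent changes was tested as an interaction. CRY2 was the 1 gene of 10 past the threshold, beside 14.9% of all genes. At an unadjusted p under 0.05 there were 4 of the 10, beside 4167 of all 14215 genes. The single-agent changes of CRY2 summed to 1.20, while its combo change was 0.70, lower by 0.49 (SE 0.104, adjusted p = 0.0039). In the fit with the replicate number as a block, CRY2 (-0.49, adjusted p = 0.00025), CLOCK (0.42, adjusted p = 0.0012) and NR1D1 (-0.34, adjusted p = 0.025) passed. For NR1D2 the sum and the combo change were both 1.00, with an interval of the difference from -0.24 to 0.24, and for PER1 the interval was -0.21 to 0.27.

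With both agents in MM1R, 5 of the 10 genes differed from vehicle (4 higher, 1 lower), beside 51.5% of all genes. NR1D2 stood at 92.7 and 83.7 CPM (1.08, adjusted p = 9.4e-09), NR1D1 at 39.1 and 37.3 CPM (0.93, adjusted p = 1.4e-07) and CRY2 at 50.6 and 55.2 CPM (0.45, adjusted p = 5.3e-05). PER2 fell to 12.0 and 13.0 CPM (-0.62, adjusted p = 3.1e-05). DBP, at 10.4 and 10.6 CPM, rose by 0.37 (adjusted p = 0.025), a call lost in DESeq2 (0.36, adjusted p = 0.069) and without any 1 of the 4 libraries compared (adjusted p 0.077 to 0.10).

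Adding Dex to TAK-981 in MM1R moved 0 of the 10 genes, beside 0% of all genes in edgeR, and DESeq2 called 0. At an unadjusted p under 0.05 there were 0 of the 10, beside 214 of all 14215 genes. The intervals of the differences for Dex added to TAK-981 lay between -0.36 and 0.21 for the 9 genes other than PER3. The interaction of the agents in MM1R gave 0 of the 10 genes too, beside 0% of all genes, and DESeq2 again called 0. Of the 10, 0 had an unadjusted p under 0.05, beside 400 of all 14215 genes. Against Dex alone, the combo moved 6 of the 10 genes (5 higher, 1 lower), beside 48.4% of all genes. NR1D2 (1.10), NR1D1 (1.09), DBP (0.70) and CRY2 (0.52) were higher and PER2 (-0.46) was lower. PER1 was higher by 0.23 (adjusted p = 0.021), a call lost in DESeq2 (adjusted p = 0.061) and without either Dex library or the second combo library.

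**Figure D4:**
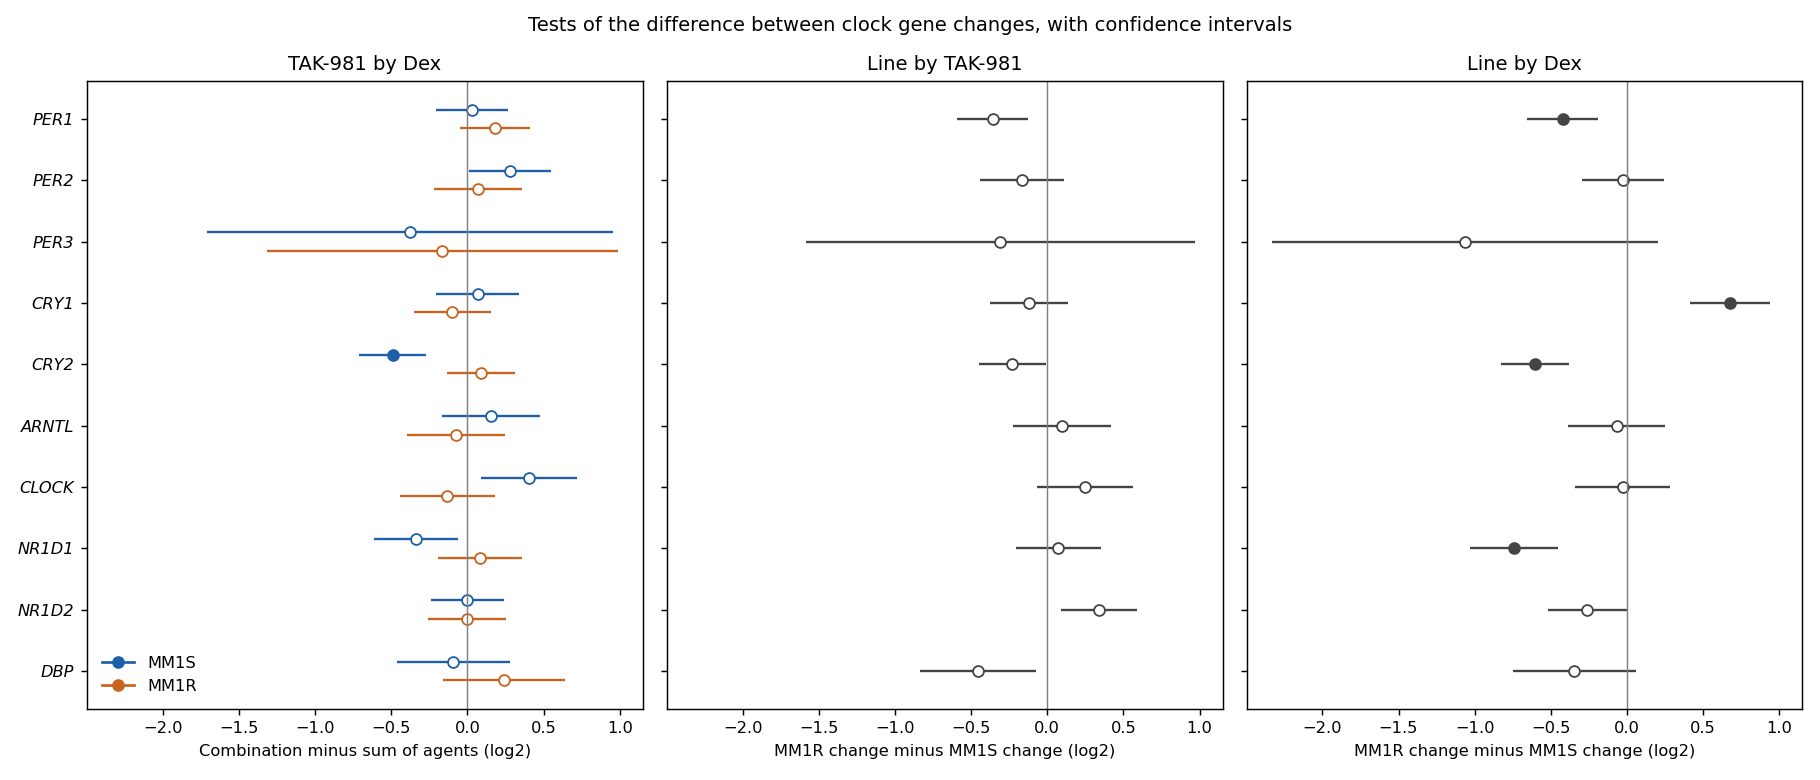
Tests of differences between changes for each clock gene, on the log2 scale with 95% intervals. The left panel gives the combo change minus the sum of the single-agent changes in each line, and the other panels give the change in MM1R minus that in MM1S. Filled points passed, as CRY2 did on the left and CRY1, CRY2, NR1D1 and PER1 did on the right.

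Between the vehicle-treated lines, 4 of the 10 genes differed (1 higher, 3 lower in MM1R), beside 48.2% of all genes. Of these 4, NR1D2 had the largest difference, at 43.5 and 40.0 CPM in MM1R against 67.1 and 69.9 CPM in MM1S (-0.71, SE 0.0870, adjusted p = 2.9e-06). PER2 was also lower in MM1R (-0.54, SE 0.0888, adjusted p = 7.1e-05), while PER1 was higher, at 34.5 and 38.5 CPM against 27.8 and 28.0 CPM (0.39, SE 0.0791, adjusted p = 0.00058). DBP passed narrowly (-0.34, adjusted p = 0.043), and its call was lost in DESeq2 (-0.33, adjusted p = 0.12) and under the block (-0.23, adjusted p = 0.11). It was also lost without the second MM1S vehicle library (-0.23) and without any 1 library of MM1R (-0.35 to -0.33). CRY1, CRY2, CLOCK and NR1D1 differed by 0.10 or less in size and did not pass. PER3 did not pass at its few counts either, with a difference of 0.91 (95% interval -0.02 to 1.84, adjusted p = 0.10). ARNTL did not pass (-0.20, adjusted p = 0.14) but did with only the 2 groups fitted (-0.22, adjusted p = 0.014) and under the block (-0.26, adjusted p = 0.039). The block fit has a replicate term for each line, so its values for DBP and ARNTL here compare the lines at the level of replicate 1. They are thus not the same quantity as in the main fit.

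Clock genes beyond these 10 were described from a list of 24 genes that holds paralogs, ROR receptors, D-box factors, E-box repressors, kinases and ubiquitin ligases of the clock, of which 23 were tested. With TAK-981, 14 of them passed in MM1S (6 higher, 8 lower), beside 49.0% of all genes, and the MM1R count was 11 (5 higher, 6 lower), beside 53.4%. With Dex, 15 passed in MM1S (7 higher, 8 lower), beside 42.3% of all genes. In MM1R 0 passed in edgeR, as for all genes (0%). Of the 23, 0 had an unadjusted p under 0.05, beside 395 of all 14215 genes. In the test of the line by Dex difference, 11 passed (8 higher, 3 lower in MM1R minus MM1S), beside 28.1% of all genes. In that of TAK-981, 3 passed (3 higher), beside 4.16% of all genes, of whose calls 76.5% were higher.

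BHLHE40, also called DEC1, a repressor at E-boxes, showed the smallest adjusted p of the list with Dex in MM1S and fell by 1.70 (SE 0.124, adjusted p = 2.9e-09). Its paralog BHLHE41 (DEC2) fell by 0.79 (adjusted p = 2.9e-08), and ARNTL2, the paralog of ARNTL, fell by 0.56 (adjusted p = 8.9e-07). NFIL3, which represses at the D-boxes where DBP activates, rose by 0.73 (SE 0.0577, adjusted p = 9.5e-09). With TAK-981, NFIL3 was among the 4 genes of smallest adjusted p in MM1R, where it fell by 0.83 (adjusted p = 2.4e-09). In MM1S it was lower with TAK-981 as well, at 126 and 122 CPM against 200 and 184 CPM with vehicle.

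TEF, a D-box activator of the same family as DBP, rose with TAK-981 in both lines. It went from 11.2 and 13.2 CPM to 33.8 and 32.5 CPM in MM1S (1.45, SE 0.0949, adjusted p = 5.2e-10). In MM1R it went from 5.83 and 5.81 CPM to 17.6 and 17.7 CPM (1.60, SE 0.109, adjusted p = 1.1e-09). WEE1, a cell cycle kinase whose gene is known as an output of the clock, fell by 1.40 in MM1S (adjusted p = 6.2e-11), and its MM1R fall was -0.89 (adjusted p = 1.8e-08). TIMELESS, which acts at replication forks, fell by 1.06 (adjusted p = 8.7e-09) and 0.86 (adjusted p = 9.3e-08), and ARNTL2 fell by 1.05 in MM1S (adjusted p = 2.2e-10). In MM1R, ARNTL2 was lower too, at 89.4 and 86.2 CPM against 132 and 135 CPM with vehicle.

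The genes whose pattern was most like that of PER1 and DBP were ranked by Pearson's r over the 8 group means of log2 CPM, which share the scaling of these 16 libraries. For PER1 they were LINC00167 (0.98), HSPG2 (0.96), ZNF192P1 (0.96), ZNF658 (0.96) and SNAI3 (0.95), and 47 of 14214 genes had an r over 0.9. For DBP they were TAX1BP1 (0.997), ZNF154 (0.99), PIAS3 (0.99), ZNF211 (0.99) and PPP1R3D (0.98), and 671 genes had an r over 0.9. The pattern of DBP was thus shared by more genes of the table than that of PER1.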

How the data were processed

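Total RNA depleted of ribosomal RNA was sequenced from the 16 libraries. The authors deposited 1 table of raw read counts per gene, not normalized, with gene positions and lengths on build hg19. The submitters' processing notes name bcl2fastq 2.18.0.12, STAR 2.6.0, HTSeq 0.6.0 and edgeR 3.28.1, without roles, and the gene annotation and strand setting were not given in the sources used here. Overlapping reads on opposite strands therefore cannot be separated.

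Here the counts of all 16 libraries were filtered (filterByExpr, minimum count 10), scaled by TMM and fitted in edgeR 4.0.16 (R 4.3.3) with 1 term per group, which left 8 residual degrees of freedom and 14215 genes. Each of 15 comparisons was tested by the robust quasi-likelihood F test its p-values adjusted by Benjamini-Hochberg over every gene in the fit, and called under 0.05. CPM were scaled by TMM, RPKM also by the table's gene lengths, and log2 CPM used a prior count of 2. Intervals are 95% intervals of the fitted difference. DESeq2 1.42.0 and the other alternatives were run on the same counts. The scripts were tested on simulated data.

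All 10 members were named, with the 4 genes of smallest adjusted p from a list of 24 further clock genes per comparison with Dex in MM1S and TAK-981 in each line, 6 glucocorticoid genes, and the 5 genes most like PER1 and DBP. The levels and differences of other genes were given only where a result turned on them. The members and lists were chosen with earlier results of these data known. Replicate numbers in the labels were checked on the deviations from group means. In MM1S all 6 pairs of groups had correlations above 0.1 (0.152 to 0.618), so libraries of the same number varied alike there. What they share was not tested. In MM1R all 6 were positive but weaker (0.0719 to 0.252) and 5 of 6 were above 0.1, so pairing there was left undecided. The main fit has no replicate term, so its p-values do not use this shared variation in MM1S. The block fit has a replicate term for each line. The chi-square per degree of freedom between the 2 libraries of a group was 2.08 to 21.2, so no pair was 1 library deposited as 2.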

Additional observations from a re-analysis of the deposited data

Results flagged for a closer look

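For 4 clock genes the response to Dex differed between the lines by the test of the difference itself, the change in MM1R minus the change in MM1S. The log2 difference was -0.42 for PER1, 0.68 for CRY1, -0.60 for CRY2 and -0.74 for NR1D1, with edgeR adjusted p-values of 0.0083, 0.00045, 0.00029 and 0.00045. With Dex, both MM1S libraries moved away from both vehicle libraries for each of these genes. In MM1R the differences of PER1, CRY1, CRY2 and NR1D1 with Dex were -0.13, 0.12, -0.07 and -0.16, of the other sign in each case. None of these passed, beside 0 of all 14215 genes tested, and the 95% interval of each included 0. NR3C1 stood at 17.9 to 19.9 CPM in vehicle-treated MM1R against 277 to 283 CPM in MM1S, and its part in these differences was not tested. For the line by Dex difference of all genes, 28.1% passed.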

How the results depend on the processing

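The counts of clock genes called moved by more than 1.5 times in 3 of the 15 comparisons. For Dex added to TAK-981 in MM1S the count was 5, and 3 when only the groups compared were fitted, with 3 to 5 when 1 library was left out. For the interaction in MM1S it was 1, and 2 with no filter on low counts (CRY2 and CLOCK), 3 under the replicate block and 1 to 3 with 1 library left out. The 3 were ARNTL (0.38), CLOCK (0.61) and CRY2 without the first TAK-981 library, and CLOCK (0.55), PER2 (0.39) and CRY2 without the first Dex library. For the line by TAK-981 difference it was 0, and 1 with no filter (NR1D2, adjusted p = 0.038), 3 under the replicate block and 0 to 4 with 1 library left out. The cause was not tested in any of these. Of 53 calls on single genes, 42 held under every alternative, 7 were lost under at least 1 of the 6 alternatives that keep all libraries and 11 under leaving out 1 library. None reversed. Results not called at first passed with 1 library left out in 13 cases, under the replicate block in 10 and under another alternative in 7. Beside the comparisons above, the replicate block brought in CLOCK with TAK-981 and, for TAK-981 added to Dex, CLOCK and CRY2 in MM1S. It also brought in NR1D2 in the line by Dex difference and ARNTL between vehicle-treated lines, where DBP was lost. The block changed no other call. Between vehicle-treated lines the block fit compares the level of replicate 1, which is not the quantity of the main fit. With library sizes alone, CRY1 (0.24, adjusted p = 0.038) and CRY2 (0.19, adjusted p = 0.033) passed for TAK-981 added to Dex in MM1S. Leaving out 1 library puts a lone sample in its group, which was assumed to vary like the other groups. Median shifts over all genes stayed under 0.1 with each scaling. The share of higher calls among all genes in the MM1S interaction was 36.6%, and 53.2% with library sizes alone. Depth limited PER3, at 5 to 15 counts per library.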

Other observations

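Glucocorticoid-induced genes outside the clock list were measured beside PER1. KLF9, a factor known both as a glucocorticoid target and as a clock output, measured 14.8 and 13.5 CPM with vehicle in MM1S, 50.3 and 54.0 CPM with Dex and 76.9 and 82.0 CPM with combo. Its log2 difference was 1.88 (SE 0.0822) with Dex and 2.49 (SE 0.0816) with combo, and both passed in edgeR (adjusted p = 3.0e-12 and 9.1e-15). ZBTB16, a transcription factor, rose from 0.987 and 1.54 CPM to 38.7 and 37.4 CPM with Dex, a difference of 4.92 (SE 0.153). DUSP1, a phosphatase, rose by 0.48 (SE 0.0966, adjusted p = 0.00062) with Dex in MM1S. With TAK-981, DUSP1 rose by 0.75 in MM1S (adjusted p = 4.1e-06), and its MM1R rise was 0.72 (adjusted p = 5.9e-06), where KLF9 rose too, by 0.65 (adjusted p = 2.7e-05). Not every glucocorticoid-induced gene was higher with TAK-981. FKBP5 went from 68.6 and 69.0 CPM down to 40.3 and 43.7 CPM in MM1S. Its MM1R libraries went from 93.0 and 96.4 CPM down to 61.3 and 54.9 CPM. ZBTB16 was lower in MM1S, at 0.415 and 0.669 CPM. TSC22D3 was higher, at 49.7 and 58.3 CPM against 38.3 and 44.4 CPM with vehicle in MM1S. For MM1R these levels were 156 and 163 CPM against 85.1 and 86.8 CPM.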
